A study of Arabidopsis thaliana with 39 samples.

Results

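The XTH genes encode xyloglucan endotransglucosylase/hydrolases, wall enzymes of glycoside hydrolase family 16. The probe table of the Affymetrix ATH1 array gave a symbol made of XTH and a number to 9 genes, of 13350 genes that it names through a probe set of 1 gene. These 9 genes, XTH16, XTH18, XTH19, XTH20, XTH21, XTH26, XTH29, XTH32 and XTH33, are described here, each through the single probe set that names it. The Arabidopsis family list used here has 33 numbered genes, and the other 24 were not analysed as members.

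Xyloglucan is the main tethering glucan of the primary wall in Arabidopsis. An endotransglucosylase cuts a xyloglucan chain and joins the new end to another chain, so that wall material can be rearranged or added while the wall stays under load. A hydrolase of the same family passes the cut end to water instead and shortens the chain. In roots these enzymes are known from the elongation zone, from growing root hairs and from the vascular tissue.

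RNA came from 5-day-old seedlings of the Columbia ecotype grown on standard media, and the auxin reporter line DR5-GUS is given as the source of every sample. The oscillation zone of the root tip, where the sites of later lateral roots are set, was divided into OZ2 (19 arrays) and OZ1 (20 arrays). Growth, age and line are the same in both groups, so the comparison is between parts of 1 tissue and not between treatments. The labels' description places OZ2 in the upper and OZ1 in the lower section, while the tissue label says the reverse, so neither is called upper or lower here. The submitters also gave each array a position in an order used to find periodic patterns, 1 to 20 for OZ1 and 21 to 39 for OZ2. Nothing in the sources used here says whether each array came from a separate seedling beyond the mention of individual roots. The p-values therefore judge results against the spread between these arrays. In such dissected pieces, fewer cells of a type and less RNA per cell cannot be told apart.

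The instrument records put 10 OZ2 and 12 OZ1 arrays on scan day 1, 8 OZ1 arrays on scan day 2 and 9 OZ2 arrays on scan day 3. Over all tested probe sets 6 arrays lay nearer the mean of the other region than that of their own, OZ2-32, OZ2-38, OZ1-2, OZ1-3, OZ1-6 and OZ1-10. On a scale where the OZ1 mean is 0 and the OZ2 mean is 1, OZ2-38 stood at -0.35 and OZ1-10 at 1.09. The bacterial hybridisation controls, which hold no plant transcript, took 1.5% to 17.3% of the signal in OZ2 arrays and 0.836% to 10.5% in OZ1 arrays, and 11 arrays were above 5%, among them OZ2-32, OZ1-3, OZ1-6 and OZ1-10. Of the markers fixed for other cell types, those of xylem, phloem, endodermis and root cap had no matched probe set and were not analysed here.

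The question put to the genes was whether their transcripts differ between OZ2 and OZ1. Of the 7 members tested, XTH32, XTH20, XTH18, XTH21 and XTH33 were higher in OZ2, XTH16 was lower in OZ2, and XTH19 did not pass. Scan days 2 and 3 each hold 1 region, so a fit with a scan day term takes the region difference from scan day 1 alone. Its log2 differences equal those within scan day 1, and only the estimate of error differs, so the 2 are not separate checks. With a scan day term 6 of these 7 outcomes changed. XTH32 alone was then higher, XTH19 alone was lower, and XTH16, XTH18, XTH20, XTH21 and XTH33 did not pass. Calls also became fewer over all 13627 tested probe sets, with 621 higher and 914 lower in OZ2, against 1819 and 2130 without the term. Testing was limited to probe sets whose log2 signal averaged above 5.69 over the 39 arrays, and a call is a limma adjusted p under 0.05 over all 13627 tested probe sets. By the same rule 29.0% of all tested probe sets were called, 13.3% higher and 15.6% lower in OZ2. The median log2 difference, OZ2 minus OZ1, was 1.58 over the 7 genes and -0.09 over all tested probe sets. XTH32 reached the filter through its OZ2 arrays, so the count over tested genes depends in part on the filter. Fitted with no filter, 6 of the 9 genes were higher and 1 lower in OZ2, against 8.41% and 8.66% of all probe sets, with a median log2 difference of 1.39 over the 9 genes and 0.02 over all probe sets. For all 9 genes the values of OZ2 and OZ1 overlapped, as they did for every tested probe set (0.00% did not overlap).

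**Figure D1:**
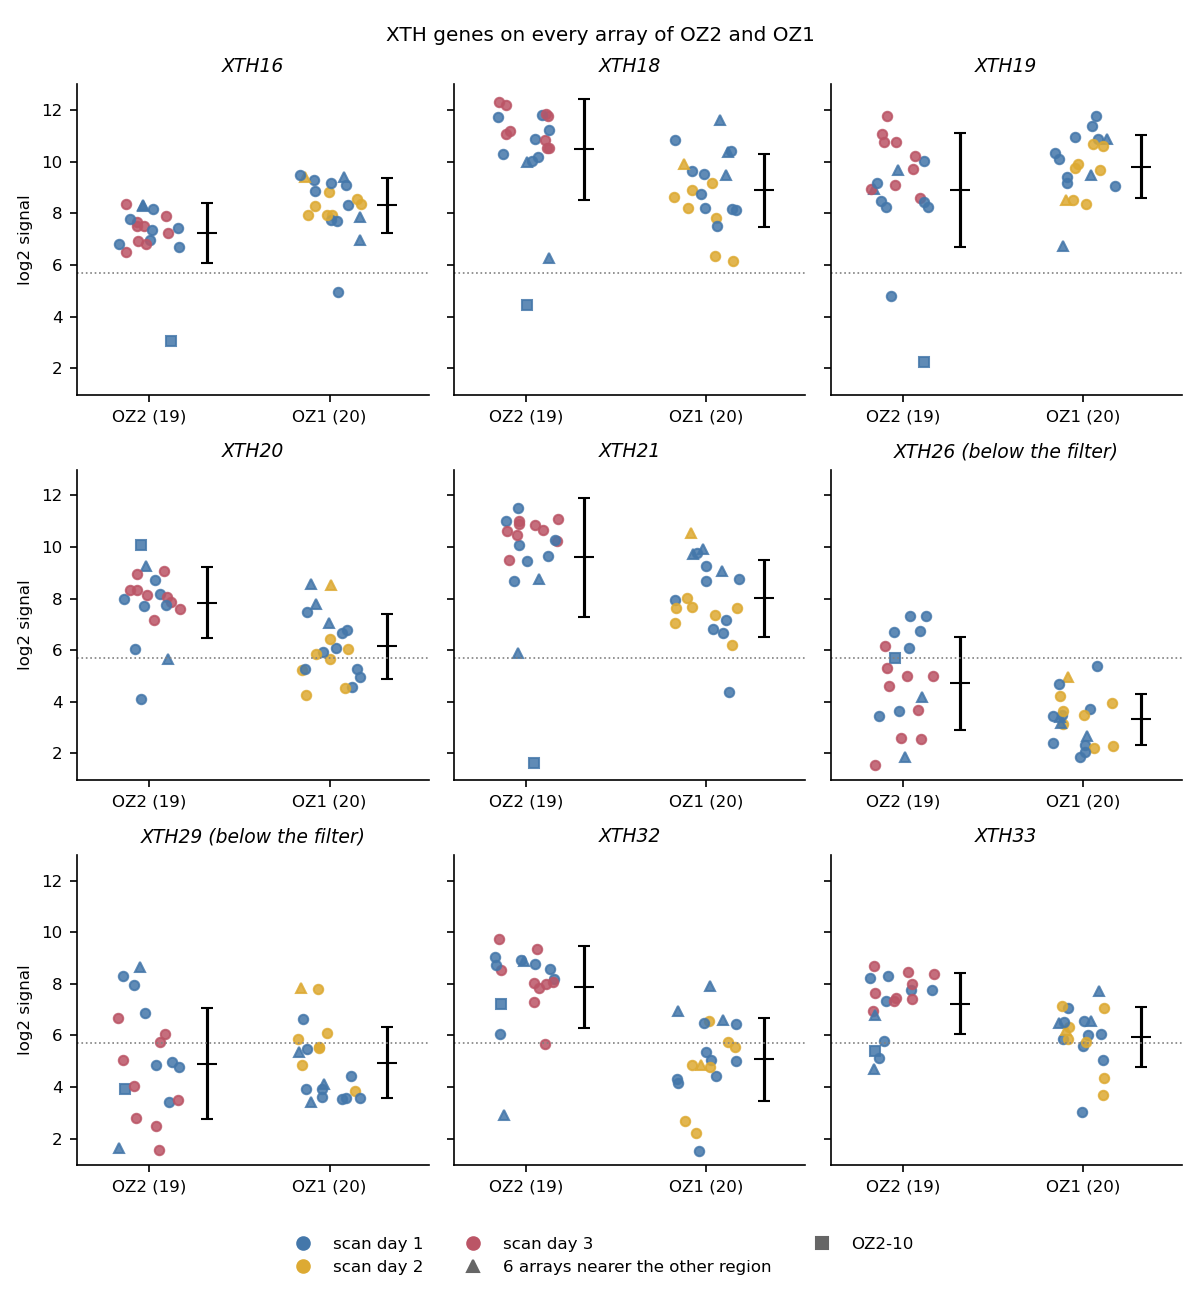
Log2 signal of the 9 XTH genes on each array, with OZ2 (19 arrays) left of OZ1 (20 arrays). Colour gives the scan day, triangles the 6 arrays that lie nearer the other region and the square OZ2-10. Bars are mean ± SD and the dotted line is the filter level of 5.69. In XTH32, 13 of the 19 OZ2 arrays lie above every OZ1 array, and OZ2-10 is the lowest OZ2 array in XTH16, XTH18, XTH19 and XTH21.

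XTH20 belongs to group II, the largest subfamily of the XTH proteins in Arabidopsis. In Arabidopsis roots its promoter is known to be active in the vascular tissue of the mature part, and XTH20 is known from the healing of cut stems. XTH20 had a lowest, median and highest log2 signal of 4.10, 8.05 and 10.07 in OZ2, against 4.25, 6.00 and 8.55 in OZ1. Of the 19 OZ2 arrays 17 were above the OZ1 median, and 5 were above every OZ1 array. The mean was 7.84 ± 1.37 (SD, n = 19) in OZ2 and 6.15 ± 1.27 (SD, n = 20) in OZ1, a log2 difference of 1.69 ± 0.41 SE (3.23-fold, limma adjusted p = 0.00137). Within scan day 1 the difference was 1.18 and did not pass (limma adjusted p = 0.239). The fit over all arrays with a scan day term gives this same difference, and there it did not pass (limma adjusted p = 0.157). The 3 highest OZ1 arrays were OZ1-6, OZ1-3 and OZ1-10, with 8.55, 8.54 and 7.79, all among those nearer the other region.

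XTH18 and XTH19 are close relatives that stand side by side on chromosome 4, with 0 protein-coding genes between them in the RefSeq annotation of TAIR10.1. Promoter studies placed XTH18 in all cell types of the elongating and differentiating root, and XTH19 also in the dividing part, with induction by auxin. XTH18 had a lowest, median and highest log2 signal of 4.46, 10.88 and 12.32 in OZ2, against 6.16, 8.82 and 11.64 in OZ1. Of the OZ2 arrays 17 of 19 were above the OZ1 median, while OZ2-10 and OZ2-38 lay far below the others at 4.46 and 6.27. The log2 difference was 1.59 ± 0.50 SE (3.01-fold, limma adjusted p = 0.0132). The values by scan day were as follows. Within scan day 1 the difference was 0.29 (limma adjusted p = 0.848), and between OZ2 of scan day 3 and OZ1 of scan day 2 it was 3.22. XTH18 did not pass with a scan day term (limma adjusted p = 0.816) or without the 11 arrays high in hybridisation controls (1.5, limma adjusted p = 0.0648), and without OZ2-10 the difference over all days was 1.92 (limma adjusted p = 0.000418).

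XTH19 did not pass in the fit over all arrays. Its lowest, median and highest log2 signals were 2.24, 9.09 and 11.78 in OZ2, against 6.73, 9.84 and 11.77 in OZ1. In OZ1 15 of 20 arrays were above the OZ2 median, and the 2 lowest OZ2 arrays, OZ2-10 at 2.24 and OZ2-9 at 4.79, lay below every OZ1 array. The log2 difference was -0.90 ± 0.52 SE (95% interval -1.94 to 0.13, limma adjusted p = 0.193). Within scan day 1 it was -2.18 (limma adjusted p = 0.0637), and this same difference passed with a scan day term (limma adjusted p = 0.0178). Between OZ2 of scan day 3 and OZ1 of scan day 2 it was 0.60. Without OZ2-10 it was -0.53 over all days (limma adjusted p = 0.357). The test of that contrast between scan days, given further on, did not pass for XTH19 after adjustment.

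The level of XTH18 relative to XTH19 on the same array is a quantity that no scaling of whole arrays can move. This pair was chosen after both genes had been seen to shift alike between scan days, so its values are a description with no test. The probe sets bind with different strength, so zero on this scale has no meaning and only the change between regions is read. Log2 XTH18 minus log2 XTH19 had a lowest, median and highest value of -3.42, 1.72 and 5.41 in OZ2, against -3.61, -1.08 and 2.78 in OZ1. In OZ2 18 of 19 arrays were above the OZ1 median, and in OZ1 1 of 20 arrays was above the OZ2 median. The means were 1.58 ± 1.66 (SD, n = 19) in OZ2 and -0.92 ± 1.5 (SD, n = 20) in OZ1, a difference of 2.49. The difference was 2.48 within scan day 1 and 2.63 between OZ2 of scan day 3 and OZ1 of scan day 2, which follows from the values of the 2 genes given above. The exceptions were arrays already named. OZ2-38 was the lowest OZ2 array, and OZ1-10, OZ1-3, OZ1-6 and OZ1-2 were the 4 highest OZ1 arrays. Whether either probe set also binds the transcript of the neighbour was not tested.

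**Figure D2:**
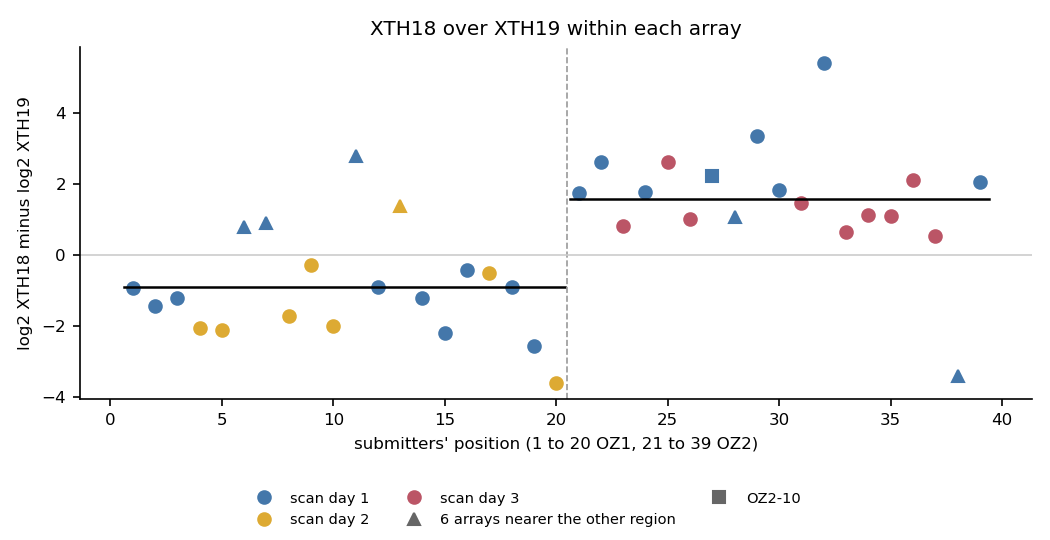
Log2 signal of XTH18 minus that of XTH19 on the same array, at the submitters' positions 1 to 20 (OZ1) and 21 to 39 (OZ2). Colour gives the scan day, triangles the 6 arrays nearer the other region, the square OZ2-10 and black lines the region means of 1.58 in OZ2 and -0.92 in OZ1.

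XTH21, known in Arabidopsis for a part in the growth of the primary root, had an OZ2 array far below all others. It had a lowest, median and highest log2 signal of 1.64, 10.29 and 11.53 in OZ2, against 4.38, 7.80 and 10.56 in OZ1. In OZ2 17 of 19 arrays were above the OZ1 median and 8 were above every OZ1 array, while OZ2-10 was the lowest array of all 39. The log2 difference was 1.58 ± 0.56 SE (2.99-fold, limma adjusted p = 0.0298). Without OZ1-31, the lowest OZ1 array, it was 1.39 and no longer passed (limma adjusted p = 0.052), and without OZ2-10 it was 2.02 (limma adjusted p = 0.000296). With a scan day term it did not pass (limma adjusted p = 0.707). It also missed the threshold without the 11 arrays high in hybridisation controls (limma adjusted p = 0.0696). Within scan day 1 it was 0.52 (limma adjusted p = 0.768), and between OZ2 of scan day 3 and OZ1 of scan day 2 it was 2.82.

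XTH16 was the single member lower in OZ2. It had a lowest, median and highest log2 signal of 3.04, 7.43 and 8.35 in OZ2, against 4.94, 8.35 and 9.47 in OZ1. In OZ1 18 of 20 arrays were above the OZ2 median, and in OZ2 1 of 19 arrays was above the OZ1 median. The log2 difference was -1.08 ± 0.35 SE (2.12-fold lower in OZ2, limma adjusted p = 0.0149). It was of like size in both sets of scan days, -1.15 within scan day 1 and -1.03 between OZ2 of scan day 3 and OZ1 of scan day 2. Within scan day 1 alone, which holds fewer arrays, the difference did not pass (limma adjusted p = 0.216). Neither did the same difference with a scan day term (limma adjusted p = 0.106), and why the call was lost was not tested. Apart from OZ2-10 at 3.04, the OZ2 arrays were close together, with an SD of 0.60 over 18 arrays. Without OZ2-10 the log2 difference was -0.85 (limma adjusted p = 0.0207), the smallest fall among the 39 fits that each left out 1 array.

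XTH26, known from root hairs and the elongating root, was below the filter and was not tested with the others. Its mean log2 signal was 4.71 ± 1.81 (SD, n = 19) in OZ2 and 3.32 ± 0.99 (SD, n = 20) in OZ1, and both lie under 5.69. Of the OZ2 arrays 7 were above 5.69, up to 7.33 on OZ2-35, against 0 of 20 in OZ1. Fitted with no filter the log2 difference was 1.39 ± 0.48 SE (limma adjusted p = 0.0371), a size that is uncertain at such low signals. The OZ2 mean was 5.30 on scan day 1 and 4.05 on scan day 3, and the OZ1 mean 3.22 on scan day 1 and 3.48 on scan day 2. The regions thus lay farther apart on scan day 1 than between the later days. The root hair expansins EXPA18 and EXPA7 were also higher in OZ2, by 4.23 and 3.43 on the log2 scale (limma adjusted p = 1.72e-06 and 9.17e-05). Of 16 listed root hair markers 3 were tested and these 2 were called, against 13.3% of all tested probe sets called higher. SCN1 did not pass, with a log2 difference of 0.32 (limma adjusted p = 0.282), and -0.18 within scan day 1 (limma adjusted p = 0.753). With a scan day term EXPA7 did not pass (limma adjusted p = 0.096). The part of root hair cells in the XTH values was not tested.

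Group III holds the members known for hydrolase activity, among them XTH32, which had the largest difference of the 7 tested genes. XTH32 had a lowest, median and highest log2 signal of 2.91, 8.20 and 9.74 in OZ2, against 1.52, 5.03 and 7.93 in OZ1. In OZ2 18 of 19 arrays were above the OZ1 median and 13 were above every OZ1 array, and no OZ1 array reached the OZ2 median. The mean was 7.89 ± 1.59 (SD, n = 19) in OZ2 and 5.07 ± 1.61 (SD, n = 20) in OZ1, a log2 difference of 2.82 ± 0.49 SE (7.06-fold, limma adjusted p = 2.95e-05). In OZ1 7 of 20 arrays were above 5.69, so the size of the fold change is uncertain. With no filter the adjusted p was 2.61e-05. XTH32 was the one member that kept its call within scan day 1, at a log2 difference of 2.38 (limma adjusted p = 0.0445). The same difference also passed with a scan day term (limma adjusted p = 0.0148). The arrays that stood apart did so here too, since OZ2-38 was the lowest OZ2 array at 2.91, and OZ1-10, OZ1-6 and OZ1-2 were the 3 highest OZ1 arrays at 7.93, 6.94 and 6.58.

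XTH33, which is predicted to carry a membrane anchor, had a lowest, median and highest log2 signal of 4.68, 7.45 and 8.70 in OZ2, against 3.04, 6.12 and 7.74 in OZ1. In OZ2 15 of 19 arrays were above the OZ1 median and 8 were above every OZ1 array. The log2 difference was 1.30 ± 0.38 SE (2.46-fold, limma adjusted p = 0.00748). Within scan day 1 it was 0.68 (limma adjusted p = 0.488), and between OZ2 of scan day 3 and OZ1 of scan day 2 it was 2.02. With a scan day term it was not called (limma adjusted p = 0.411). XTH29, below the filter, averaged 4.91 ± 2.14 (SD, n = 19) in OZ2 and 4.95 ± 1.39 (SD, n = 20) in OZ1, and with no filter its log2 difference was -0.04 ± 0.56 SE (limma adjusted p = 0.98). Its means by scan day went opposite ways. On scan day 1 the mean was 5.54 in OZ2 and 4.30 in OZ1, and later it was 4.21 in OZ2 (scan day 3) and 5.915 in OZ1 (scan day 2). EXGT-A3, which the RefSeq synonyms give as XTH27 and which is known from the tracheary elements of leaf veins, is no member by its table symbol. It was 1.25 higher in OZ2 on the log2 scale (limma adjusted p = 0.00223), and 0.64 within scan day 1 (limma adjusted p = 0.37).

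**Figure D3:**
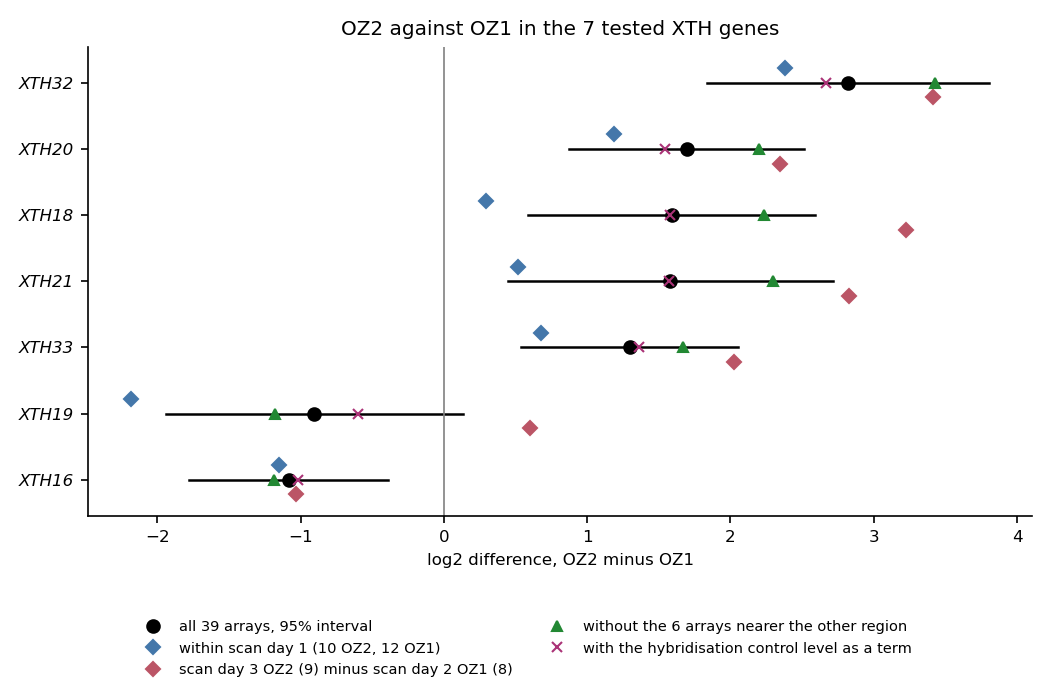
Log2 difference, OZ2 minus OZ1, of the 7 tested XTH genes. Black points and lines are the fit over 39 arrays with its 95% interval, and the other symbols give the difference within scan day 1, between the later scan days, without the 6 arrays nearer the other region and with the hybridisation control level as a term. XTH32 lies between 2.38 and 3.43 in these 5 estimates, the highest without the 6 arrays, and XTH18 between 0.29 and 3.22. Leaving out the 6 arrays for their likeness to the other region widens region differences by construction.

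The difference within scan day 1 was set against the difference between the later days for each gene in 1 fit. Scan day 1 minus the later days gave -2.93 for XTH18, -2.78 for XTH19 and -2.31 for XTH21 on the log2 scale, with unadjusted limma p-values of 0.00279, 0.005 and 0.0393. None of the 7 genes passed after adjustment (limma adjusted p = 0.214 for XTH18), and neither did any of the 13627 probe sets (0.00%), of which 1750 had an unadjusted p under 0.05. On scan day 1 stood 5 of the 6 arrays nearer the other region, as well as OZ2-10. The scan days hold different arrays as well as different days, and the part of each was not tested.

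OZ2-10 gave a pattern of its own among the members. It was the lowest OZ2 array for XTH16, XTH18, XTH19 and XTH21, with log2 signals of 3.04, 4.46, 2.24 and 1.64, and the highest OZ2 array for XTH20, with 10.07. Over all tested probe sets OZ2-10 lay with its region, at 0.78 on the scale from OZ1 to OZ2, and its hybridisation controls held 3.59% of the signal. The SD of XTH21 in OZ2 was 2.31 with OZ2-10 and 1.31 without it, that of XTH19 was 2.20 and 1.54, and that of XTH18 was 1.97 and 1.36. With this array these 3 SDs stood at the 99.6th, 99.4th and 97.9th percentile of the tested probe sets in OZ2, and without it at the 66.4th, 84.7th and 70.5th.

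Across arrays of the same region XTH18 and XTH21 moved together. In OZ2 Pearson's r was 0.933 and Spearman's rho 0.668 over 19 arrays (permutation tests, p = 4e-05 and 0.00239, adjusted over 42 tests 0.00168 and 0.0335). Without OZ2-10 and OZ2-38, the 2 arrays farthest from the median of XTH18, r was 0.558 (permutation test, p = 0.0199), and without OZ2-10 alone it was 0.850, so part of its size rested on those arrays. In OZ1 r was 0.619 and rho 0.695 over 20 arrays (permutation tests, p = 0.00345 and 0.001, adjusted 0.0724 and 0.021), and r without the 2 farthest arrays was 0.684. Within the scan days r was 0.944 and 0.433 in OZ2 and 0.690 and 0.527 in OZ1, with 10, 9, 12 and 8 arrays. Of the 21 pairs of tested members in each region this was the single pair called by both measures, in OZ2, and no pair was called by both in OZ1. How often other pairs of tested probe sets correlate this strongly on these arrays was not measured. The correlation is therefore not shown to be particular to XTH18 and XTH21.

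**Figure D4:**
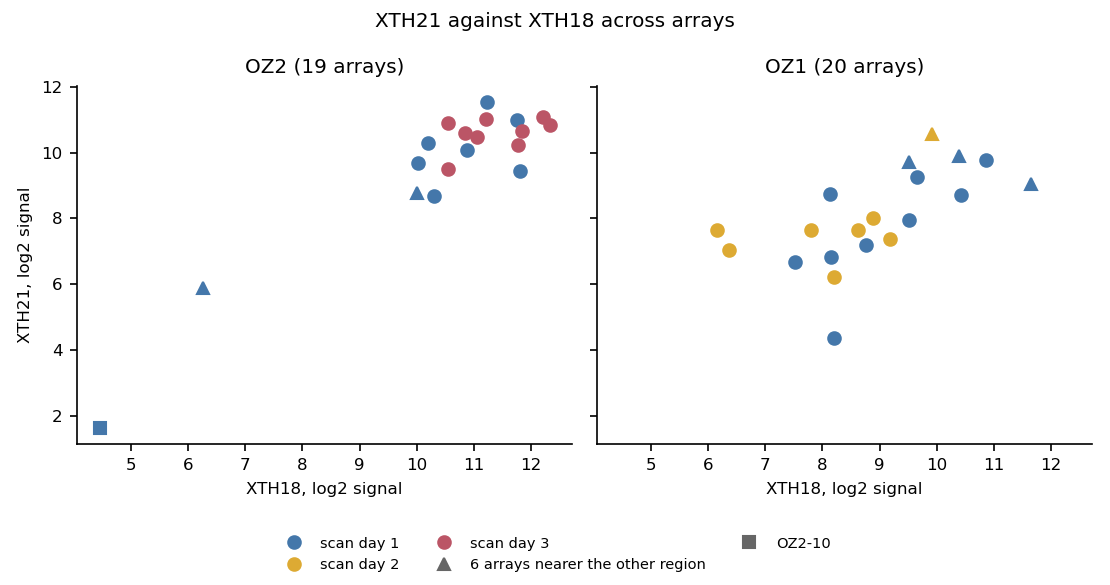
Log2 signal of XTH21 against that of XTH18 on the 19 OZ2 arrays (left) and the 20 OZ1 arrays (right). Colour gives the scan day, triangles the 6 arrays nearer the other region and the square OZ2-10. OZ2-10 and OZ2-38 lie at the lower left of the OZ2 panel, apart from the other 17.

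The highest rho of all pairs was that of XTH21 and XTH33 in OZ2, at 0.747, with r = 0.614 (permutation tests, p = 0.00036 and 0.00656, adjusted 0.0151 and 0.0798). Their r was 0.811 without OZ2-10 and OZ2-38 (permutation test, p = 0.00015), and 0.545 and 0.372 within the scan days. In OZ2 the mean of XTH21 was 8.70 on scan day 1 and 10.59 on scan day 3, and that of XTH33 was 6.71 and 7.815. The permutations did not keep arrays within their scan day, so r and p over both days also hold this step. In OZ1 r was 0.340 and rho 0.358 for this pair (permutation tests, p = 0.144 and 0.121). For XTH18 and XTH19 in OZ2 the values were r = 0.687 and rho = 0.647 (permutation tests, p = 0.0076 and 0.00362, adjusted 0.0798 and 0.038), but Pearson's r did not pass after adjustment. Its value was 0.678 without OZ2-10 and OZ2-38 and 0.312 without OZ2-10 alone, so it changed with single arrays. In OZ1 r was 0.354 and rho 0.431 (permutation tests, p = 0.125 and 0.0599). Within the scan days r was 0.582 and 0.786 in OZ2 and 0.380 and 0.135 in OZ1.

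Along the submitters' order no member passed beyond the step between the regions. The F-test of 3 harmonics over the 39 positions with the region as a term called 0 of the 7 genes, and 0.411% of all tested probe sets. XTH19 had the smallest p (F = 2.79, unadjusted limma p = 0.0231, adjusted p = 0.269), and its fitted curve spanned 2.86 log2 units with a peak at position 38. For the other 6 genes the adjusted p ran from 0.732 to 0.94. Region and order are confounded, since each region holds consecutive positions.

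**Figure D5:**
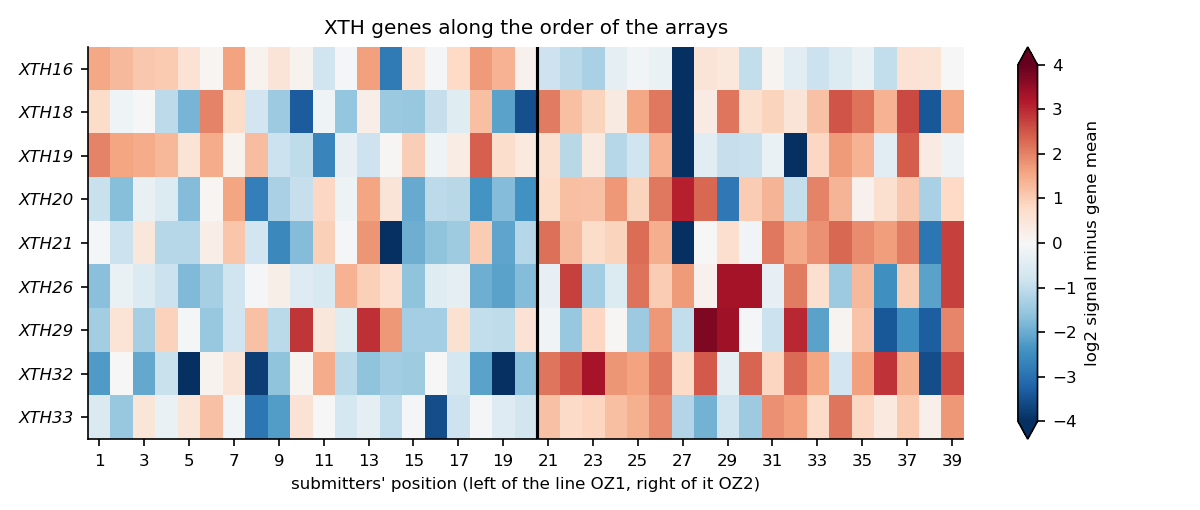
Log2 signal of each XTH gene minus its mean over the 39 arrays, at the submitters' positions, with OZ1 left and OZ2 right of the line. OZ2-10, at position 27, is dark blue in XTH16, XTH18, XTH19 and XTH21 and red in XTH20, and OZ2-38 at position 38 is blue in XTH18, XTH21 and XTH32.

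The genes whose pattern across arrays was most like that of XTH32, by Pearson's r of log2 signals after removal of the region means over 39 arrays, were IRX15-L (r = 0.745), AT4G25790 (0.727), AT3G62260 (0.696) and AT3G14470 (0.683). For XTH16 they were AT5G63380 (r = 0.779), AT3G14960 (0.717), SKU5 (0.688) and AT1G71020 (0.682). These are descriptions over arrays that also share their scaling and labelling. Arrays nearer the other region keep part of the region difference after the means are removed. Likeness to XTH32 can therefore favour genes higher in OZ2 through the way they were picked. For XTH16 much of the spread in OZ2 came from OZ2-10, with an SD of 1.17 with that array and 0.60 without it. How far its r values rest on OZ2-10 was not tested. The genes nearest to XTH32 were each called higher in OZ2, by 1.30 to 3.66 on the log2 scale, against 13.3% of all tested probe sets. None of those nearest to XTH16 was called, against 29.0% of all tested probe sets, with log2 differences from -0.54 to 0.23.

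Among the genes that make xyloglucan, the 4 of 21 listed with a matched probe set were all CSLC genes, which encode synthases of the glucan backbone. CSLC12 was higher in OZ2, with a log2 difference of 1.42 ± 0.31 SE (limma adjusted p = 0.000519). CSLC4, listed as CSLC04, and CSLC5 were lower in OZ2, with log2 differences of -0.77 ± 0.23 and -0.73 ± 0.25 SE (limma adjusted p = 0.00849 and 0.0229), and CSLC6 did not pass. In the fit with a scan day term CSLC5 passed (limma adjusted p = 0.0165), and CSLC12 and CSLC04 did not (limma adjusted p = 0.0878 and 0.0874). CSLC5 did not pass without the 6 arrays nearer the other region (limma adjusted p = 0.0938) or without those high in hybridisation controls (limma adjusted p = 0.108). No gene for the removal of xyloglucan side chains had a matched probe set. Of 14 listed mitosis markers 3 were tested. BUB3.1 of the spindle checkpoint and the kinase AUR1 were lower in OZ2, by log2 differences of -1.51 and -0.93 (limma adjusted p = 0.00194 and 0.0396). With a scan day term neither passed (limma adjusted p = 0.0878 and 0.285). AUR2 did not pass, with a log2 difference of -0.14 (limma adjusted p = 0.878), and 0.77 within scan day 1 (limma adjusted p = 0.602). AUR1 missed the threshold in 17 of the 39 fits that left out 1 array. Their part in the XTH values was not tested.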

How the data were processed

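For each array the authors deposited 1 intensity value per probe set, computed with MAS5 per the submitters' processing notes, which state no version. The mean of each array after trimming at percentiles 2 and 98 lay between 249.84 and 249.95, so the values had been scaled array by array. The deposited instrument records (unit other, per the file headers) gave the scan day. Of 22810 probe sets 64 controls were left out. Log2 values of the 13627 probe sets with a mean above the 40th percentile (5.69) entered lmFit and eBayes with a trend, from limma 3.58.1 under R 4.3.3, two-sided, with Benjamini-Hochberg adjustment over all of them and a threshold of 0.05. The scripts were tested on simulated data. Permutation tests used 100000 permutations over all arrays of a region, without regard to scan day. Median signal per array was 54.4 to 164, and precision is limited by how many arrays there are.

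The rule for named genes was every XTH gene, up to 3 members of each other list by adjusted p, and the 4 genes most like the members with the largest rise and fall. The lists were xyloglucan synthesis and side chain removal, and markers of root hair, xylem, phloem, endodermis, root cap and mitosis. Members and lists were chosen with earlier results of these data known. Names come from GEO's platform annotation and RefSeq TAIR10.1, used for names and neighbours only. No source used here names a genome build, so no coordinates are printed. A planned description of protein and promoter sequences was not run.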

Additional observations from a re-analysis of the deposited data

How the results depend on the processing

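Over all 39 arrays 5 XTH genes were higher and 1 lower in OZ2. The count of higher genes was 3 with a filter at the 60th percentile, which leaves out XTH32 and XTH33, 1 with the scan day as a block, 1 in scan day 1 alone, 2 there without the 5 arrays nearer the other region (chosen after seeing the data, and leaving out arrays for their likeness to the other region widens region differences by construction) and 3 without the 11 arrays with over 5% hybridisation control signal. The count of lower genes was 2 with the replicate block and 0 in scan day 1 alone. Leaving out each array in turn gave 4 to 5 higher and 1 lower. Among all probe sets 1819 were higher and 2130 lower, against 2869 and 3473 with array weights, 621 and 914 with a scan day term, and 315 and 486 in scan day 1 alone, and 1678 to 2000 and 1965 to 2406 without each array in turn. Along the order 56 probe sets were called, and 0 with the hybridisation control level as a term, 305 with 2 harmonics and 0 with quantile normalization. No log2 difference of the 7 genes changed sign under any setting of the region fit listed here, while that of XTH19 between the later scan days was 0.60. XTH32 passed in all 13 alternatives that tested it, with log2 differences from 2.26 to 3.61. The cause was not tested where a call was lost, and the scan day 1 fits hold fewer arrays. The scan day block and scan day 1 alone give the same log2 differences, so they are not separate checks. The difference in XTH18 minus XTH19 ran from 2.34 to 3.41 under 6 alternatives, all added after seeing the data, the highest without the 6 arrays nearer the other region, and from 2.28 to 2.77 without each array in turn.

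The number in the titles is shared by 14 pairs of arrays. Their deviations from the region means correlated at -0.25 to 0.20 (median 0.03), with 3 of 14 over 0.1 and 0 of the pairs closest to their own number, so the numbers were not taken to pair the arrays. With the replicate block over the shared numbers 1685 probe sets were higher and 1916 lower. XTH19 passed (log2 difference -1.58, limma adjusted p = 0.0159) and XTH21 did not (1.31, limma adjusted p = 0.132), and without the block over the same arrays neither passed (limma adjusted p = 0.0524 and 0.125). Each XTH gene had 1 probe set, so no alternative probe set could be tried.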
